A study of Mus musculus with 12 samples.

Results

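The UDP-glucuronosyltransferases of mouse liver are described here through 9 genes, Ugt1a1, Ugt2b1, Ugt2b5, Ugt2b34, Ugt2b35, Ugt2b36, Ugt2b37, Ugt3a1 and Ugt3a2. They were taken by gene symbol from a table of 16970 genes, and all 9 were present and passed the filter on low values (3 or more libraries with an FPKM of 1 or more). FPKM is a read count divided by the length of the gene model and the depth of the library. The table holds 12 libraries of liver polyA RNA from mice with cholestasis, in 4 groups of 3. In the groups titled BDL and BDL_H the bile duct had been tied for 7 days, and BDL_H was taken as the group that also received hyodeoxycholic acid (HDCA) at 100 mg/kg for 4 days, starting 3 days after surgery. The groups titled MDR and MDR_H were taken as the Abcb4-/- mice of the series description, 60 days old at the start. Of these, MDR_H received HDCA at 100 mg/kg for 21 days. Strain and sex are not given in the labels used here, and livers of healthy mice were not analysed here. Whether replicates are separate animals is not stated. In MDR the summed FPKM of 4 Y-linked genes was 20.1 in replicate 1 and 0.0 in replicates 2 and 3. Replicate 1 of MDR was thus not a technical repeat of the others. In the other groups, and between MDR replicates 2 and 3, the spread behind the p-values below may be technical.

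Glucuronidation joins glucuronic acid, carried by UDP, to a small molecule in the endoplasmic reticulum of the hepatocyte, which makes it soluble enough to leave in bile or urine. Ugt1a1 conjugates bilirubin. Family 2B enzymes conjugate steroids, bile acids and drugs, and human UGT2B4 and UGT2B7 are known for glucuronidating HDCA itself. Family 3A enzymes use other UDP sugars: human UGT3A1 transfers N-acetylglucosamine, with ursodeoxycholic acid among its substrates, and human UGT3A2 uses UDP-glucose and UDP-xylose.

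Each library held 34260782 to 40427855 reads, as recovered from the FPKM steps. Abcb4 stood at 129 to 181 FPKM in the 6 libraries labelled MDR or MDR_H and at 52.8 to 178 in the 6 labelled BDL or BDL_H, so its level does not set the first apart. A gene level does not show whether the transcript is intact. Directions between the models below are therefore directions between libraries labelled MDR and libraries labelled BDL. BDL replicate 1 and BDL_H replicate 2 stood apart from the rest, with limma array weights of 0.134 and 0.171 against 0.533 to 4.88 in the other 10 libraries. The summed FPKM of 4 Y-linked genes was 16.1 to 19.6 in the 6 libraries labelled BDL or BDL_H and 20.1 in MDR replicate 1, but at most 0.016 in the other 5 libraries labelled MDR or MDR_H. The models thus differ in ligation or genotype as taken here, in the length of HDCA where given, and, apart from MDR replicate 1, in Y-linked RNA. Between MDR_H and BDL_H the parts of these in a difference cannot be told apart. Between MDR and BDL only MDR replicate 1 parts the model from Y-linked RNA, and 1 library cannot decide. The 16 hepatocyte markers were all present, with a summed FPKM of 74350 to 89470 in the BDL and BDL_H libraries and 54810 to 76844 in the MDR and MDR_H libraries.

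The 9 genes lie at 3 loci of the mouse genome (GRCm38, GENCODE M21 annotation). The 6 Ugt2b genes stand side by side on chromosome 5: Ugt2b34 at chr5:86889767-86906937, Ugt2b1 at chr5:86916638-86926530, Ugt2b35 at chr5:87000860-87013275, Ugt2b36 at chr5:87065927-87092555, Ugt2b5 at chr5:87124960-87140318 and Ugt2b37 at chr5:87240493-87254804. Ugt2b35 lies on the plus strand and the other 5 on the minus strand. Ugt3a1 (chr15:9276888-9315032) and Ugt3a2 (chr15:9335550-9370955) are neighbours on the plus strand of chromosome 15. Ugt1a1 lies on chromosome 1 (chr1:88211959-88218997, plus strand), where the Ugt1a genes have first exons of their own and the same last 4 exons.

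Close copies in this family bear on what a read count can tell. Ugt2b5 and Ugt2b37 had the most similar coding sequences of all pairs, 94.7% identical, followed by Ugt3a1 and Ugt3a2 at 93.2% and by Ugt2b5 and Ugt2b36 at 88.4%. Of all stretches of 100 bases in a Ugt2b5 transcript, 24.7% also occurred in Ugt2b37 or Ugt2b38, a pair of its close copies. The share was 1.06% for Ugt2b37 and 0.407% for Ugt2b34, and it was 0% for Ugt2b1, Ugt2b35, Ugt2b36, Ugt3a1 and Ugt3a2. For Ugt1a1 it was 57.2%, and 58.9% of the exonic bases of Ugt1a1 belong to exons of other Ugt1a genes. The FPKM values of Ugt1a1 imply a model length of about 3235 bases. This is longer than the 913 bases it does not share and than all 2224 exonic bases of its GENCODE model. The gene model behind the values thus differs from the one described here. How the authors assigned reads from shared exons is not given in the sources used here, so the level of Ugt1a1 is uncertain.

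The bases just before the start of transcription in the RefSeq annotation are shown for 4 genes that the values below turn on. RefSeq and GENCODE starts are not always the same. The Ugt3a1 stretch lies inside the GENCODE model of the gene (chr15:9276888-9315032), not before it. Bases 87254789 to 87254804 of the Ugt2b37 stretch also lie inside its GENCODE model. Ugt2b5 and Ugt2b36 had similar levels in each library. Ugt2b37 had the largest ratio of highest to lowest FPKM of the 9 genes. Among the members compared, the upstream sequence of Ugt2b37 is the most like that of Ugt2b5. Ugt3a1 differed between the models. Each line gives the 130 bases before the RefSeq start (GRCm38.p6), on the strand of the gene, at chr5:87140341-87140470 for Ugt2b5, chr5:87092556-87092685 for Ugt2b36, chr5:87254789-87254918 for Ugt2b37 (all minus strand) and chr15:9279699-9279828 for Ugt3a1 (plus strand). Capitals mark AGGTCA, a site of nuclear receptors, or ATTAAC, the complement of GTTAAT, a site of the factor HNF1.
Ugt2b5: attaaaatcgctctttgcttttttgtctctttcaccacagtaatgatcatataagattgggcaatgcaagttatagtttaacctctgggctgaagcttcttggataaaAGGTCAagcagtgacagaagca
Ugt2b36: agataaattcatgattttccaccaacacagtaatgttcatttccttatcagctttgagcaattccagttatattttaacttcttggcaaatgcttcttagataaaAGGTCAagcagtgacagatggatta
Ugt2b37: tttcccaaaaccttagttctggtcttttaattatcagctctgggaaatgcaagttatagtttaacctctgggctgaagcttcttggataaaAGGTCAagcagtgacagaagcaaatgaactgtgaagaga
Ugt3a1: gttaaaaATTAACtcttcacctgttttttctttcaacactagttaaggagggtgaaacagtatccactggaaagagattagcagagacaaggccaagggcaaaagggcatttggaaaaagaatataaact

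Over windows of 300 bases, 250 before and 50 after the RefSeq start, Ugt2b5 and Ugt2b37 were 82.3% identical. They shared an unbroken run of 72 bases, which holds the AGGTCA, while the longest run shared by Ugt2b5 and Ugt2b36 was 24 bases, also with this hexamer. The hexamer AGGTCA, searched on both strands, was in the window of 4 of the 8 genes that have one in the RefSeq table (Ugt2b5, Ugt2b35, Ugt2b36 and Ugt2b37) and in 16.3% of all 32851 windows. GTTAAT, on both strands, was in 2 of the 8 (Ugt1a1 and Ugt3a1) and in 7.10% of all windows; both matches lie on the strand opposite to the gene. TGTTTAC, the forkhead motif, was found in 2 of 8 (3.65% of all windows), TTGCNNAA, a C/EBP motif, in 3 of 8 (10.8%), and TATAAA, the TATA box, in 1 of 8 (13.6%). CACGTG, the E-box, was in none of the 8 and in 7.15% of all windows. No match of one motif overlapped a match of another in these 8 windows. These matches are a description of letters, and binding was not measured.

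In levels per length, Ugt2b5 was the highest of the 9 genes in all 12 libraries, with 349 ± 96.0 FPKM (SD, n = 12), followed by Ugt2b36 at 291 ± 65.8. Ugt2b36 was above Ugt2b34 in 12 of 12 libraries, with no overlap of their ranges. The next steps were less firm. Ugt2b34 (147 ± 26.5 FPKM) was above Ugt3a2 (123 ± 21.3) in 9 of 12 libraries, Ugt3a2 above Ugt2b1 (104 ± 76.6) in 10 of 12, and Ugt2b35 (58.7 ± 20.5) above Ugt1a1 (55.7 ± 14.2) in 6 of 12. Ugt3a1 (22.9 ± 9.38) was below Ugt1a1 in every library, and Ugt2b37 (5.97 ± 6.29) was the lowest in every library. Ugt2b5 and Ugt2b36 made up 25.3 to 32.5% and 23.0 to 29.0% of the summed FPKM of the 9 genes, and Ugt2b37 at most 1.58%.

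**Figure D1:**
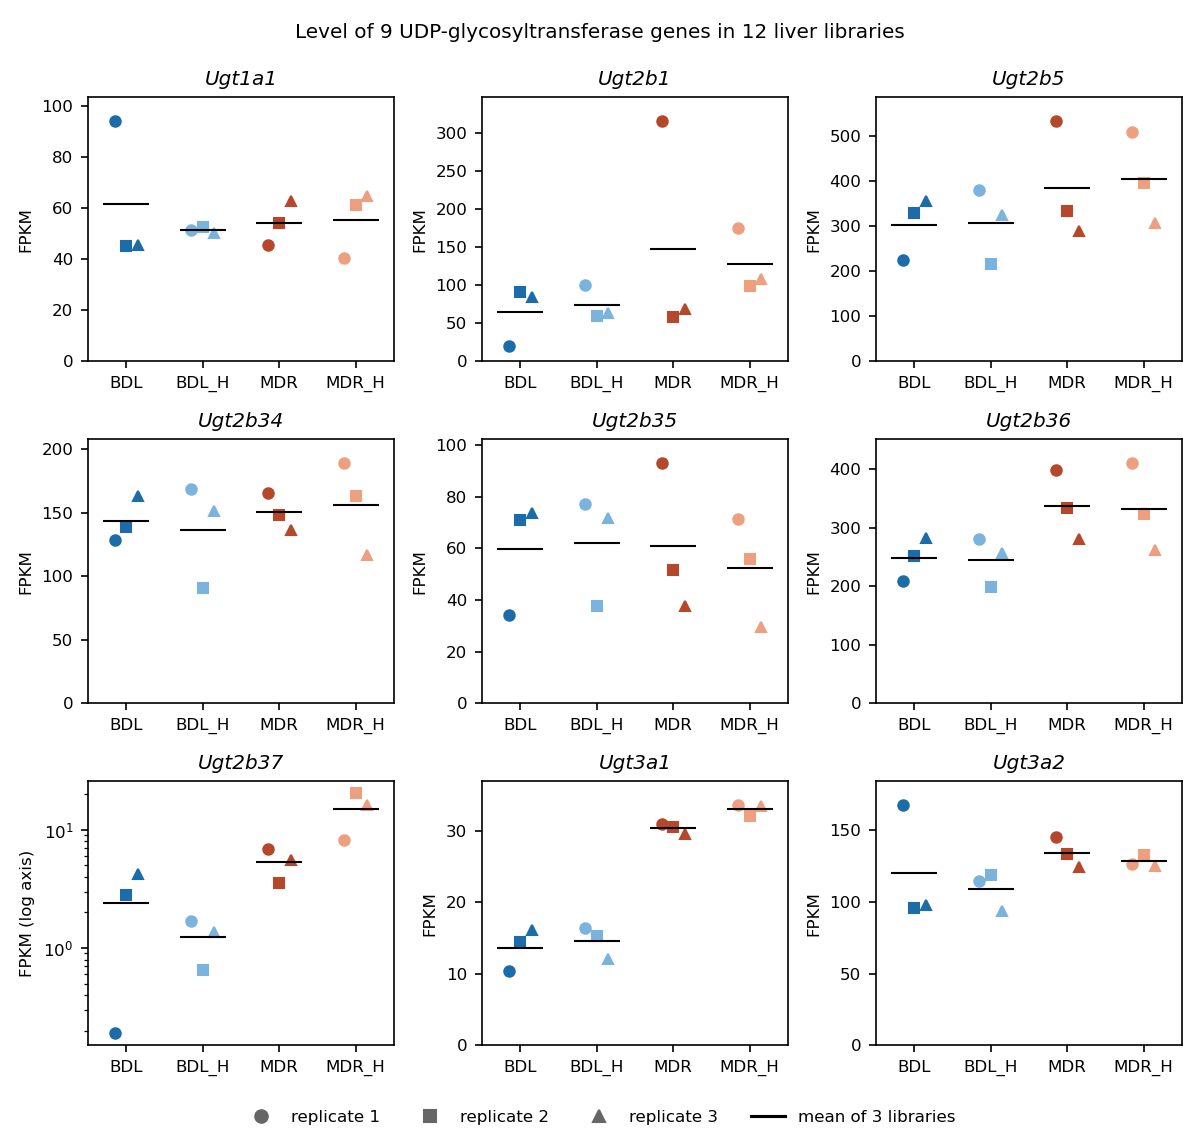
FPKM of each of the 9 genes (1 panel each, vertical axis) in the 12 libraries by group; point shapes are replicates, the bar is the mean of 3 libraries, and the Ugt2b37 axis is logarithmic. Ugt3a1 lies between 10.4 and 16.4 FPKM in BDL and BDL_H libraries and between 29.6 and 33.6 in MDR and MDR_H libraries, while the other panels show compared groups that overlap, apart from Ugt2b37 and Ugt3a2 between the HDCA groups and Ugt2b37 between MDR and MDR_H.

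The summed FPKM of the 9 genes was 889, 1039 and 1122 in BDL replicates 1 to 3 and 1191, 789.6 and 1026 in BDL_H. It was 1734, 1147 and 1035 in MDR and 1562, 1284 and 1064 in MDR_H. The highest sums were those of the first replicate of MDR and of MDR_H, and the lowest those of BDL_H replicate 2 and BDL replicate 1, the pair of libraries with low array weights. The 10 other UGT genes of the table summed to 131 to 164 FPKM in the BDL and BDL_H libraries and to 175 to 231 in the MDR and MDR_H libraries, without overlap.

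**Figure D2:**
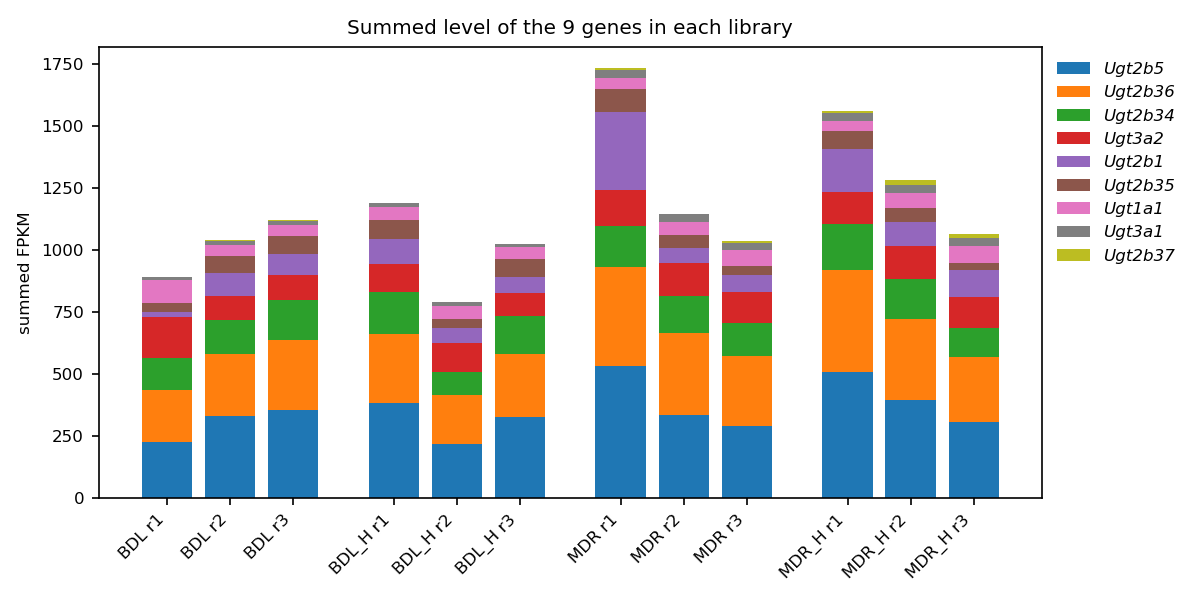
Summed FPKM of the 9 genes in each library (bars from 0, stacked by gene; r1 to r3 are replicates). Sums run from 789.6 in BDL_H replicate 2 to 1734 in MDR replicate 1, and Ugt2b5 and Ugt2b36 are the largest pieces of every bar.

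Between the models, Ugt3a1 was the 1 member that differed both without and with HDCA. It stood at 10.4, 14.5 and 16.2 FPKM in BDL, 16.4, 15.3 and 12.0 in BDL_H, 31.0, 30.6 and 29.6 in MDR and 33.6, 32.1 and 33.5 in MDR_H, from 920 to 2979 reads a library. Every library labelled MDR or MDR_H was above every library labelled BDL or BDL_H, and the spread within MDR (SD 0.752, n = 3) was small beside the gap. Its mean was 2.22 times that of BDL in MDR, a difference of 1.12 ± 0.16 (SE) on the log2(FPKM + 1) scale (limma adjusted p = 0.00268). In the HDCA groups the ratio was 2.26 and the difference 1.14 ± 0.16 (limma adjusted p = 0.00418). In bulk tissue fewer cells of a type and less RNA per cell cannot be told apart.

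Background rates for these comparisons were high. Without HDCA, 1 of the 9 members was called, Ugt3a1, where 16.2% of all 10805 genes tested were called and 15.1% were called higher in MDR. With HDCA, 2 of 9 were called, Ugt3a1 and Ugt2b37, where 8.29% of all genes were called and 7.36% were called higher in MDR_H. The members' median difference was 0.32 without HDCA and 0.40 with it, beside 0.25 and 0.20 over all genes tested. Groups did not overlap for 1 of 9 members without HDCA and for 3 of 9 with it (Ugt2b37, Ugt3a1 and Ugt3a2), beside 42.3% and 36.9% of all genes. Only the 2 of 9 called with HDCA are a larger share than the background, and they are 2 single genes, so the counts say nothing particular of the members as a group. The median of all genes was shifted upward in the libraries labelled MDR and MDR_H, and with each library scaled by its median ratio this shift was gone and Ugt3a1 kept a difference of 0.82 (adjusted p = 0.00912) and 0.90 (adjusted p = 0.0103, both limma). Higher calls made up 93.4% of all calls without HDCA and 88.7% with it, but 63.8% and 53.8% after that scaling and 58.2% and 52.9% after quantile normalization. Markers of several other cell types were called higher in MDR than in BDL: 7 of 10 tested cholangiocyte, 10 of 12 stellate cell and fibroblast, 6 of 12 endothelial, 1 of 12 macrophage, 3 of 3 lymphocyte and 3 of 6 erythroid markers, and none was called lower. Between MDR_H and BDL_H the counts were 3, 7, 0, 1, 0 and 0 in the same order. Their summed FPKM was 128 to 415 (cholangiocyte) and 74.0 to 249 (stellate) in BDL and BDL_H libraries and 276 to 536 and 280 to 538 in MDR and MDR_H libraries, with no defining marker at 0 throughout. Neutrophil markers went the other way, with 1 of 6 called lower without HDCA (4 of 6 had negative differences) and 2 of 6 with it (6 of 6), at sums of 31.2 to 100.2 FPKM in BDL and BDL_H libraries and 17.3 to 61.7 in MDR and MDR_H libraries. Of 8 stress and early response genes, 1 (Fos) was called lower without HDCA and 0 with it. Their sums were 59.9 to 142 FPKM in BDL and BDL_H libraries and 48.1 to 68.1 in MDR and MDR_H libraries. The part of these lists in the difference of Ugt3a1 was not tested.

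**Figure D3:**
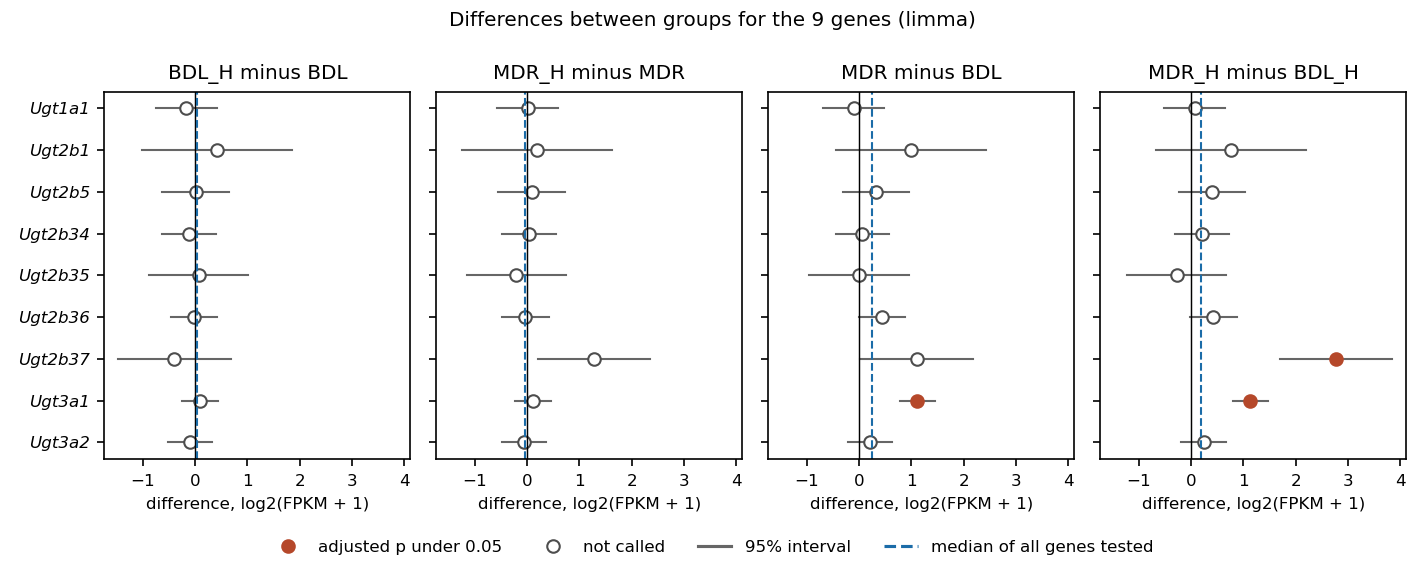
Difference of log2(FPKM + 1) between groups for each of the 9 genes (points, with the 95% interval of the limma fit); filled points had an adjusted p under 0.05 and the dashed line is the median of all genes tested. Ugt3a1 is filled in both comparisons between the models, at 1.12 and 1.14, Ugt2b37 in the one with HDCA, at 2.77, and no point is filled for HDCA against no HDCA.

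Ugt3a2, the neighbour of Ugt3a1, was measured at a higher level and was not called between the models. It stood at 167, 96.0 and 97.7 FPKM in BDL, 114, 119 and 93.9 in BDL_H, 145, 133 and 124 in MDR and 127, 133 and 125 in MDR_H. BDL replicate 1 was the highest of the 12, and without it the BDL libraries lay below all MDR libraries. The difference between MDR and BDL was 0.20 ± 0.19 (limma adjusted p = 0.453), and 0.47 without BDL replicate 1, which passed the test (limma adjusted p = 0.0409). With median-ratio scaling it was -0.11. Between MDR_H and BDL_H the groups did not overlap and the difference was 0.24 ± 0.19 (limma adjusted p = 0.434). The ratio of Ugt3a2 to Ugt3a1 was 6.02 to 16.1 in the BDL and BDL_H libraries and 3.74 to 4.68 in the MDR and MDR_H libraries. Both quantities come from the same library, so this ratio does not depend on the scaling of libraries.

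Ugt2b37 had the largest spread relative to its level, from 0.190 to 20.2 FPKM, a ratio of 106 that rests on the 14 reads of its lowest library. Its values were 0.190, 2.82 and 4.25 FPKM in BDL, 1.68, 0.653 and 1.38 in BDL_H, 6.90, 3.53 and 5.58 in MDR and 8.19, 20.2 and 16.2 in MDR_H, from 14 reads in BDL replicate 1 to 1421 in MDR_H replicate 2. All MDR_H libraries were above all MDR libraries, and all MDR_H above all BDL_H, while BDL and MDR overlapped. The mean of MDR_H was 12.0 times that of BDL_H, with a difference of 2.77 ± 0.49 (limma adjusted p = 0.0121). Without MDR_H replicate 2 the difference was 2.52 and no longer passed the test (limma adjusted p = 0.0529). Between MDR and BDL the difference was 1.10 ± 0.49 (limma adjusted p = 0.137), and 0.46 without BDL replicate 1.

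HDCA came closest to a difference at the same gene, but the test across all genes did not call it. In MDR the mean of Ugt2b37 with HDCA was 2.79 times that without, and all MDR_H libraries were above all MDR libraries. The difference was 1.28 ± 0.49 (95% interval 0.21 to 2.35, limma adjusted p = 1.00). In BDL the mean with HDCA was 0.512 times that without, a difference of -0.39 ± 0.49 (limma adjusted p = 1.00), with overlapping groups. The difference of the HDCA effects between the models was 1.67 ± 0.69 (95% interval 0.15 to 3.19, limma adjusted p = 1.00). The treatments ran for 21 days in one model and 4 in the other, so the model and the length of treatment cannot be told apart. The ratio of Ugt2b5, its nearest copy, to Ugt2b37 was 77.1, 94.6 and 51.8 in MDR and 62.0, 19.5 and 18.9 in MDR_H.

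Ugt2b5 and Ugt2b36, the most abundant members, were not called in any comparison. Ugt2b5 stood at 225, 328 and 354 FPKM in BDL, 380.1, 217 and 324 in BDL_H, 532, 333 and 289 in MDR and 508, 396 and 306 in MDR_H. Ugt2b36 stood at 209, 251 and 282 in BDL, 281, 198 and 256 in BDL_H, 398, 333 and 281 in MDR and 409.8, 324 and 263 in MDR_H. In both genes the groups overlapped in all comparisons, and the first replicates of MDR and MDR_H were the highest of the 12 libraries. The ratio of Ugt2b5 to Ugt2b36 was 1.00 to 1.35 over the 12 libraries. Between MDR and BDL the difference was 0.32 ± 0.29 for Ugt2b5 (limma adjusted p = 0.432) and 0.44 ± 0.20 for Ugt2b36 (limma adjusted p = 0.151). Single libraries moved the first from 0.064 (without MDR replicate 1) and 0.12 (without BDL replicate 1) to 0.50 (without MDR replicate 3), and median-ratio scaling brought it to 0.0055. Ugt2b36 ranged from 0.31 to 0.56 without single libraries and was 0.12 with that scaling. Between MDR_H and BDL_H it was 0.40 ± 0.29 (limma adjusted p = 0.386) and 0.43 ± 0.20 (limma adjusted p = 0.192), with 0.17 to 0.58 and 0.27 to 0.58 without single libraries.

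Ugt2b1 varied widely within groups. Its FPKM was 20.1, 91.3 and 84.5 in BDL, 101, 59.3 and 64.1 in BDL_H, 316, 58.8 and 69.0 in MDR and 176, 98.8 and 109 in MDR_H. The highest values were the first replicates of MDR and MDR_H and the lowest was BDL replicate 1, a range of 15.7 times. The difference between MDR and BDL was 1.00 ± 0.65 (95% interval -0.43 to 2.43, limma adjusted p = 0.287). It was 0.23 without MDR replicate 1, 0.31 without BDL replicate 1, 1.44 without MDR replicate 2 and -0.032 with array weights. Between MDR_H and BDL_H the difference was 0.76 ± 0.65 (limma adjusted p = 0.466), and 0.51 to 0.99 without single libraries. HDCA gave 0.42 ± 0.65 in BDL and 0.18 ± 0.65 in MDR (both limma adjusted p = 1.00). With an SE of this size a doubling lies inside each of these 4 intervals.

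Genes that differ between male and female mouse liver varied in the same libraries. The summed FPKM of 12 male-biased genes, led by the urinary protein gene Mup20, was 11430 in MDR replicate 1 and 12061 in MDR_H replicate 1, 1641 in BDL replicate 1, and 3371 to 7645 in the other 9 libraries. This sum follows the most abundant genes of the list, and the signs of the list were mixed between the models. Between MDR and BDL, 6 of the 12 had positive and 6 negative differences (median 0.10). Between MDR_H and BDL_H, 3 were positive and 9 negative (median -1.15). For HDCA in BDL, 11 were positive and 1 negative (median 0.29). For HDCA in MDR, 0 were positive and 12 negative (median -0.60). Differences of group means do not show how the list varied within groups. The summed FPKM of 14 female-biased genes was 214 in BDL replicate 1 and 7.31 in MDR replicate 1. It was 33.6 in MDR_H replicate 1 and 152 to 369 in the other 4 libraries labelled MDR or MDR_H, against 7.95 to 25.6 in the other 5 labelled BDL or BDL_H. Ugt2b1 was highest in the pair of libraries with the highest male-biased sums and lowest in the library with the lowest. Ugt2b5 and Ugt2b36 were also highest in that pair. Pearson r with the male-biased sum on a log2 scale was taken as a description over the 12 libraries, which share groups. It was 0.90 for Ugt2b36, 0.84 for Ugt2b5 and 0.84 for Ugt2b1, and 0.95, 0.83 and 0.70 without BDL replicate 1 and BDL_H replicate 2. Among the other members it ran from -0.74 (Ugt1a1) to 0.72 (Ugt3a1). For Ugt2b36, Ugt2b5 and Ugt2b1, r was -0.10, -0.36 and -0.40 with the female-biased sum. Among the other members it ran from -0.81 (Ugt2b35) to 0.73 (Ugt1a1), with 0.41 for Ugt3a1 and 0.33 for Ugt2b37. Without BDL replicate 1 and BDL_H replicate 2 it was -0.88 for Ugt2b35, 0.79 for Ugt1a1, 0.72 for Ugt3a1 and 0.67 for Ugt2b37. With the summed hepatocyte markers r was -0.93, -0.77 and -0.65 for Ugt2b36, Ugt2b5 and Ugt2b1, so the male-biased sum is not the only sum these genes vary with. The 16 hepatocyte markers had mixed signs too. Between MDR and BDL 5 were positive and 11 negative, and between MDR_H and BDL_H 6 and 10. BDL replicate 1 held Y-linked reads at 16.1 FPKM together with the female-biased sum of 214. What part this variation has in the levels of these genes was not tested.

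**Figure D4:**
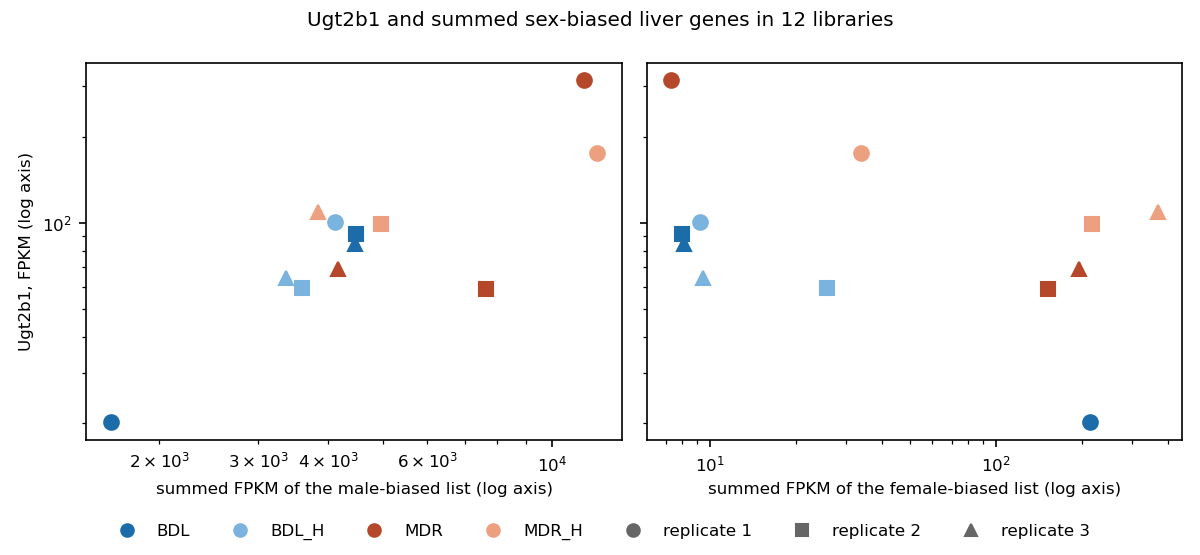
FPKM of Ugt2b1 (vertical, log axis) against the summed FPKM of 12 male-biased (left) and 14 female-biased (right) liver genes (horizontal, log axes) in the 12 libraries; colours are groups and shapes replicates. The first replicates of MDR and MDR_H lie at the upper right of the left panel, at male-biased sums of 11430 and 12061, and BDL replicate 1 at the lower left, at 1641.

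The remaining family 2B members were not called in any comparison. Ugt2b34 stood at 129, 139 and 163 FPKM in BDL, 168, 90.4 and 151 in BDL_H, 166, 149 and 136 in MDR and 189, 163 and 117 in MDR_H. Ugt2b35 stood at 34.4, 71.1 and 73.8 in BDL, 77.1, 37.6 and 71.9 in BDL_H, 92.9, 51.8 and 37.6 in MDR and 71.4, 55.9 and 29.4 in MDR_H. In both genes all groups overlapped, and BDL replicate 1 and BDL_H replicate 2 were the lowest of their groups. The 4 differences lay between -0.11 and 0.21 for Ugt2b34 and between -0.27 and 0.07 for Ugt2b35, none of them called. The 95% intervals of the MDR against BDL differences were -0.45 to 0.58 for Ugt2b34 and -0.95 to 0.95 for Ugt2b35, so differences of up to 0.95 in either direction lie within the interval of Ugt2b35.

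Ugt1a1, the bilirubin enzyme, had the opposite outlier. It stood at 93.9, 45.1 and 45.5 FPKM in BDL, 51.5, 52.6 and 50.4 in BDL_H, 45.8, 54.2 and 62.8 in MDR and 40.4, 61.1 and 64.8 in MDR_H. BDL replicate 1, where Ugt2b1 and Ugt2b37 were lowest, was the highest library for Ugt1a1, and all groups overlapped. The differences were -0.10 ± 0.27 between MDR and BDL and 0.07 ± 0.27 between MDR_H and BDL_H, -0.16 ± 0.27 for HDCA in BDL and 0.01 ± 0.27 for HDCA in MDR (limma adjusted p of 0.798 and more). Leaving out BDL replicate 1 turned the first to 0.24.

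With HDCA against no HDCA, none of the 9 members was called by limma in either model. The same holds for all genes: 0.0% were called in BDL and 0.0% in MDR, with 243 and 61 genes at an unadjusted limma p under 0.05, and limma-voom on recovered reads also called 0. One member, Ugt2b37 in MDR, had an unadjusted p under 0.05. Groups did not overlap for 0 of 9 members in BDL, beside 5.03% of all genes, and for 2 of 9 in MDR, Ugt2b37 and Ugt3a1 (both higher with HDCA), beside 5.95%. The Ugt3a1 difference in MDR was 0.12 ± 0.16 (95% interval -0.22 to 0.46). Outside Ugt2b37 and Ugt2b1, the 95% intervals of the HDCA effects stayed within -1.15 and 1.02.

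The other UGT genes of the table, 10 in number with 6 tested, held 1 gene called higher and 1 called lower in the libraries labelled MDR, the same pair without and with HDCA. Ugt1a5, of the bilirubin enzyme's own locus, fell: it stood at 9.72, 18.1 and 15.1 FPKM in BDL, 21.4, 16.4 and 16.6 in BDL_H, 2.65, 1.93 and 2.82 in MDR and 1.25, 3.87 and 3.49 in MDR_H. All libraries labelled MDR or MDR_H were below all others. The differences were -2.11 ± 0.29 (limma adjusted p = 0.00264) without and -2.37 ± 0.29 (limma adjusted p = 0.00286) with HDCA, and both passed the test under every setting and without any single library. Its last exons are those of Ugt1a1, and how reads there were assigned is not given in the sources used here. Ugt2a3, which lies beyond Ugt2b37 on chromosome 5, rose, at 71.1 to 86.3 FPKM in BDL and BDL_H libraries and 113 to 155 in MDR and MDR_H libraries. Its differences were 0.66 ± 0.14 (limma adjusted p = 0.0126) and 0.79 ± 0.14 (limma adjusted p = 0.0121), and neither passed after median-ratio scaling (adjusted p = 0.241 and 0.0799). Ugt1a9, at 3.02 to 13.2 FPKM in BDL and BDL_H and 11.0 to 31.0 in MDR and MDR_H, had differences of 1.24 ± 0.43 and 1.25 ± 0.43 and was not called (limma adjusted p = 0.0667 and 0.0871).

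Of 6 genes that supply UDP-glucuronic acid, 1 was called higher and 1 lower in both comparisons between the models, with list medians of -0.02 and -0.05. Ugp2, which makes UDP-glucose, stood at 39.6 to 71.5 FPKM in the BDL and BDL_H libraries and at 89.7 to 141 in the MDR and MDR_H libraries. It rose by 1.01 ± 0.23 (limma adjusted p = 0.0157) without HDCA and 0.99 ± 0.23 (limma adjusted p = 0.0290) with it. Slc35d1, a transporter of UDP-glucuronic acid into the endoplasmic reticulum, stood at 26.1 to 31.6 FPKM in BDL and BDL_H libraries and 13.1 to 24.0 in MDR and MDR_H libraries. It fell by 0.76 (SE 0.18, limma adjusted p = 0.020) and 0.75 (SE 0.18, limma adjusted p = 0.0335). Each of these 4 calls ended without some single libraries: 3 for Ugp2 without HDCA (BDL replicate 2, MDR replicates 2 and 3), where the highest limma adjusted p was 0.0751, and 3 for Slc35d1 (the same libraries, up to 0.0820). With HDCA the Ugp2 call ended without BDL_H replicate 2 or any MDR_H library (limma adjusted p of up to 0.101), and that of Slc35d1 without BDL replicate 2 or any BDL_H or MDR_H library (up to 0.0997). Ugdh, which oxidises UDP-glucose to UDP-glucuronic acid, was lowest in MDR_H replicate 3 (61.0), BDL replicate 1 (73.0) and BDL_H replicate 2 (74.3) and between 104 and 186 FPKM in the other 9 libraries. It was not called.

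Glucuronides leave the cell by transporters and can be split again. Of 9 export and re-uptake genes, 1 was called higher without HDCA and 0 with it. That 1 gene was Abcc1, at 0.262 to 2.15 FPKM (0.74 ± 0.23, limma adjusted p = 0.0495), and the call held without BDL replicate 3, BDL_H replicate 2 or BDL_H replicate 3 and ended without each of the other 9 libraries (limma adjusted p of up to 0.175). It was kept in only 2 of 9 other settings, with a difference of 0.34 after quantile normalization (limma adjusted p = 0.187) and 0.60 after median-ratio scaling (0.0934). Abcc2, the canalicular pump of bilirubin glucuronides, and Abcc3, its counterpart on the blood side, had differences of -0.03 ± 0.21 and 0.04 ± 0.17 between MDR and BDL, neither called. Among 10 tested genes of glucuronide hydrolysis and glucuronate use, 3 were called higher without HDCA (Akr1a1, Gusb and Rgn) and 1 with it (Akr1a1). Akr1a1, which reduces glucuronate, stood at 246 to 311 FPKM in BDL and BDL_H libraries and 372 to 459 in MDR and MDR_H libraries, with differences of 0.60 ± 0.13 (limma adjusted p = 0.0147) and 0.48 ± 0.13 (limma adjusted p = 0.0492). Neither passed after median-ratio scaling (limma adjusted p = 0.156 and 0.244). The first also ended without MDR replicate 2 (limma adjusted p = 0.0528), and the second without any library other than BDL replicate 1 (up to 0.144) and with the replicate block (0.0852). The second was kept in 2 of 10 other settings. Gusb, the beta-glucuronidase (0.61 ± 0.18, limma adjusted p = 0.0397), kept its call without the same 3 libraries as Abcc1 and lost it without the others (up to 0.148). It also lost it with median-ratio scaling (0.35, limma adjusted p = 0.0746) and with the replicate block (0.0552), and kept it in 4 of 10 other settings. Rgn (0.58 ± 0.15, limma adjusted p = 0.0263) lost it without BDL replicate 1, BDL replicate 2 or any MDR library (up to 0.0885), and with median-ratio scaling its difference was 0.26 (limma adjusted p = 0.229).

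Of 6 genes from heme to bilirubin, 0 were called without HDCA and 1 lower with it. Hmox1, heme oxygenase, stood at 21.7, 104 and 82.6 FPKM in BDL, 74.6, 100.1 and 135 in BDL_H, 25.1, 26.2 and 29.1 in MDR and 25.6, 27.8 and 22.8 in MDR_H. It was low in every MDR and MDR_H library and in BDL replicate 1. It fell by 1.95 on the log2 scale (SE 0.45) between MDR_H and BDL_H (limma adjusted p = 0.0286), a call that ended without any 1 of 5 libraries (BDL_H replicates 2 and 3, MDR_H replicates 1, 2 and 3; limma adjusted p of up to 0.0840).

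Among 16 receptors and factors known to control UGT genes, 3 were called higher and 1 lower without HDCA, and 3 higher with it. Cebpa, a hepatocyte transcription factor, stood at 80.2 to 104 FPKM in BDL and BDL_H and at 136 to 178 in MDR and MDR_H. It rose by 0.90 ± 0.14 (limma adjusted p = 0.00329) and 0.68 ± 0.14 (limma adjusted p = 0.0181). Stat5b, which carries the growth hormone signal, rose by 0.71 ± 0.16 (limma adjusted p = 0.0138) and 0.66 ± 0.16 (limma adjusted p = 0.0316). Neither gene passed after median-ratio scaling, with limma adjusted p of 0.0870 and 0.198 for Cebpa and 0.0507 and 0.0580 for Stat5b. With HDCA, Cebpa lost its call without BDL_H replicate 1, MDR_H replicate 1 or MDR_H replicate 2 (limma adjusted p of up to 0.0614). Stat5b lost it without MDR replicate 2 in the comparison without HDCA (0.0528), and in the other without BDL_H replicate 2 or 3, MDR replicate 3 or any MDR_H library (limma adjusted p of up to 0.0925). The fatty acid receptor gene Ppara was called higher in both (0.66 ± 0.19 and 0.74 ± 0.19) and the xenobiotic receptor gene Nr1i2 lower without HDCA (-0.48 ± 0.14), with limma adjusted p between 0.0422 and 0.0440. The Nr1i2 call held only without BDL_H replicate 2 or 3 (limma adjusted p of up to 0.139 without the others). Ppara lost the first call without BDL replicate 2 or 3, BDL_H replicate 1, any MDR library or MDR_H replicate 2 (up to 0.133), and the second without any library other than BDL replicate 1 and MDR_H replicate 1 (up to 0.137). Median-ratio scaling took the Ppara differences to 0.36 (limma adjusted p = 0.356) and 0.51 (0.194), and quantile normalization took the adjusted p to 0.233 and 0.141. The replicate block also ended both Ppara calls (limma adjusted p = 0.0575 and 0.0611), which were each kept in 4 of 10 other settings. The bile acid receptor gene Nr1h4 (0.27 ± 0.27 between MDR and BDL) and Nr1i3, which encodes the constitutive androstane receptor (0.13 ± 0.32), were not called.

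**Figure D5:**
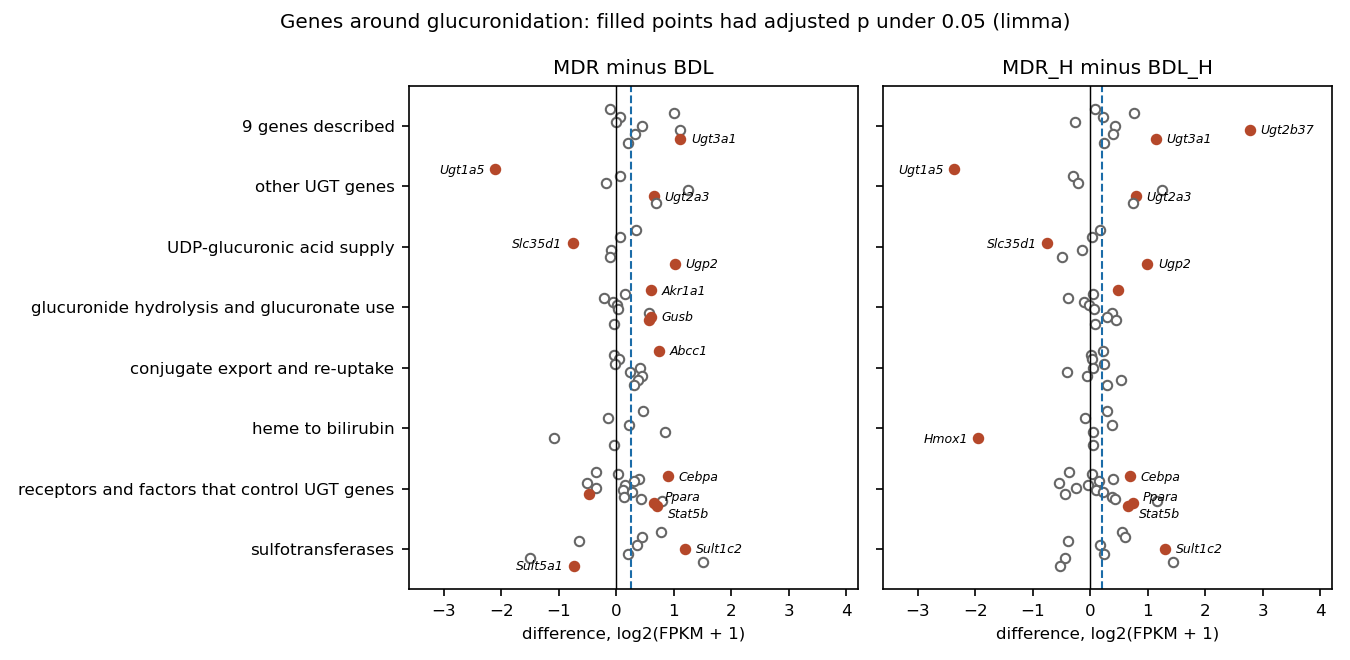
Difference of log2(FPKM + 1) between libraries labelled MDR and BDL, without (left) and with HDCA (right), for the 9 genes and 7 lists of genes around glucuronidation; each point is 1 tested gene, filled where the limma adjusted p was under 0.05, and the dashed line is the median of all genes tested. Ugt1a5 is the lowest filled point in both panels, at -2.11 and -2.37, and Ugt2b37 the highest in the right panel, at 2.77.

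Sulfotransferases conjugate many of the same substrates. Of 9 tested, 1 was called higher (Sult1c2) and 1 lower (Sult5a1) without HDCA, and 1 higher (Sult1c2) with it. Sult1c2 stood at 0.418 to 2.56 FPKM in BDL and BDL_H and 3.08 to 6.26 in MDR and MDR_H. Its differences were 1.2 ± 0.35 (limma adjusted p = 0.0398) and 1.30 ± 0.35 (limma adjusted p = 0.0454). The first call held only without BDL replicate 3, BDL_H replicate 2 or 3 or MDR replicate 1 (limma adjusted p of up to 0.156 without the others), and the second only without BDL replicate 1 or 3 or MDR replicate 1 (up to 0.144). They were kept in 2 of 9 and 4 of 9 other settings, and the replicate block ended both (limma adjusted p = 0.0531 and 0.0624). Sult5a1 stood at 0.194 to 1.72 FPKM, with a difference of -0.74 ± 0.19 (limma adjusted p = 0.0264) that did not pass without BDL replicate 1 or 2 or MDR replicate 2 or 3 (up to 0.102). Sult2a8, a liver bile acid sulfotransferase, was 160.2 in MDR replicate 1 and 173 in MDR_H replicate 1, the libraries highest for Ugt2b1, and 12.2 to 71.9 FPKM in the other 10. It was not called (1.51 ± 0.59, limma adjusted p = 0.0980, and 1.43 ± 0.59, limma adjusted p = 0.140).

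The genes with the level most like each member were ranked by Pearson correlation of log2(FPKM + 1) over the 12 libraries among 10645 genes, as a description; the libraries share groups and depth. For the mean profile of the 9 genes they were C9, a complement component (r = 0.97), Dhrs1, Ddc, Lactb2 and Nadk2 (all r = 0.95). For Ugt3a1 they were Npas2, a clock gene (r = 0.98), and Raet1d (0.97). For Ugt2b1 they were Serpina12 (0.97) and Phospho1 (0.95), for Ugt2b36 Appl1 and C9 (both 0.97), and for Ugt2b5 Hes6 (0.94) and Ube2j1 (0.93). Ugt2b37 was most like Casd1 (0.94) and Borcs8 (0.93), Ugt2b34 like Abhd5 (0.95) and Ift46 (0.94), and Ugt2b35 like Osgin1 (0.94) and Tor1aip2 (0.93). Ugt3a2 was most like Slc27a2, a bile acid CoA ligase and fatty acid transporter (0.94), and Gk (0.93). Ugt1a1 had the weakest matches, F2, the prothrombin gene, and Ldb1 (both 0.89), which were 0.76 and 0.77 without BDL replicate 1 and BDL_H replicate 2.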

How the data were processed

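The authors deposited 1 table of FPKM values for 12 mouse liver libraries. Per the submitters' processing notes, CASAVA 1.8, fastp, HISAT2 2.0.5, featureCounts 1.5.0-p3, DESeq2 1.20.0 and the build GRCm38 (mm10) were used; the sources used here do not give their order, the annotation release, strand or the treatment of shared reads. Groups and replicate numbers came from the sample titles. The 9 genes and the gene lists were chosen with earlier results of these data known; all 9 are named in every comparison, and list genes where called or where they show a step of the pathway.

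Reads were recovered from the steps between the FPKM values of a gene, and 16968 of 16970 genes (99.99%) gave whole reads in all libraries within 0.02 of a read. The main test was limma 3.58.1 (R 4.3.3) with trend on log2(FPKM + 1), which understates the change of low genes. It covered 10805 genes over the 4 group means, with 8 residual degrees of freedom. Tests were two-sided with Benjamini-Hochberg adjustment over all genes tested, and called at an adjusted p under 0.05. Both comparisons of HDCA with no HDCA and both comparisons of the models reuse the same groups and 1 estimate of spread. In simulated reads with genes altered in MDR_H, 58 of 100 altered by 1 log2 unit and 92 of 100 altered by 2 were called between MDR_H and MDR. These reads were drawn for each gene separately. They therefore lack deviations shared across a library, such as those of BDL replicate 1 and BDL_H replicate 2. Alternatives were other pseudocounts, filters and scalings, array weights, limma-voom on recovered reads, a replicate block and leaving out libraries. The replicate block asks whether libraries with the same number move together. Their deviations correlated at 0.312 to 0.548 between MDR and MDR_H and at -0.430 to 0.431 between BDL and BDL_H. The summed FPKM of Y-linked genes was 20.1 in MDR replicate 1 but 0.016 in MDR_H replicate 1. Whether the numbers pair libraries is therefore not known. The main test took the libraries as unpaired, and the block was used only as an alternative. Promoter windows came from RefSeq (GRCm38.p6), and gene models from GENCODE M21.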

Additional observations from a re-analysis of the deposited data

How the results depend on the processing

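Ugt3a1 kept its call between the models, without and with HDCA, in 10 of 10 other settings and without any single library (0.82 to 1.24 and 0.90 to 1.22), and Ugt2b37 with HDCA in 10 of 10 settings and without 11 of 12 libraries (2.52 to 3.60 in all). The number of members called between MDR and BDL was 1, but 3 with array weights and 2 without BDL replicate 1 and BDL_H replicate 2; over single left-out libraries it was 1 to 2. Between MDR_H and BDL_H it was 2, and 1 to 2 without single libraries. It was 0 for HDCA in BDL, HDCA in MDR and their difference in all settings. The replicate block ended both calls of Ppara and of Sult1c2, that of Gusb and that of Akr1a1 with HDCA among the list genes, and changed no member's call: Ugt3a1 kept 1.12 (limma adjusted p = 0.00594) and 1.14 (0.0128) and Ugt2b37 2.77 (0.0189). In a fit of the MDR and MDR_H libraries alone with a replicate block, chosen after seeing the data, Ugt2b37 had 1.28 (limma adjusted p = 1.00).

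Several differences that were not called changed sign. For HDCA in BDL, array weights gave 0.16 for Ugt1a1, 0.17 for Ugt2b34, 0.083 for Ugt2b36 and 0.16 for Ugt3a2. Without BDL replicate 1 and BDL_H replicate 2 the values were 0.17 for Ugt1a1, -0.13 for Ugt2b1, 0.086 for Ugt2b34, 0.010 for Ugt2b36, -0.11 for Ugt3a1 and 0.10 for Ugt3a2, and median-ratio scaling gave -0.027 for Ugt2b5. For HDCA in MDR, Ugt2b36 was at 0.0075 with median-ratio scaling and 0.019 with array weights. Between MDR and BDL, array weights gave 0.33 for Ugt1a1, -0.032 for Ugt2b1, -0.0095 for Ugt2b5 and -0.59 for Ugt2b35. Without the same pair of libraries the values were 0.24 for Ugt1a1, -0.0060 for Ugt2b34 and -0.35 for Ugt2b35. Quantile normalization gave -0.084 for Ugt2b34 and -0.24 for Ugt2b35, and median-ratio scaling -0.25, -0.31 and, for Ugt3a2, -0.11. Between MDR_H and BDL_H, Ugt1a1 was at -0.11 with quantile normalization and -0.16 with median-ratio scaling, and Ugt2b34 at -0.027 with median-ratio scaling, -0.11 with array weights and -0.059 without the pair. The cause was not tested.

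Without single libraries the HDCA differences in BDL ranged from -0.34 to 0.18 for Ugt1a1, -0.27 to 0.79 for Ugt2b1, -0.19 to 0.24 for Ugt2b5, -0.29 to 0.16 for Ugt2b34, -0.28 to 0.39 for Ugt2b35, -0.13 to 0.13 for Ugt2b36, -1.03 to 0.042 for Ugt2b37, -0.076 to 0.22 for Ugt3a1 and -0.24 to 0.16 for Ugt3a2. In MDR they ranged from -0.11 to 0.22 for Ugt1a1, -0.26 to 0.95 for Ugt2b1, -0.093 to 0.35 for Ugt2b5, -0.12 to 0.23 for Ugt2b34, -0.49 to 0.16 for Ugt2b35 and -0.19 to 0.13 for Ugt2b36. Between MDR and BDL the ranges were -0.28 to 0.24 for Ugt1a1, -0.0060 to 0.16 for Ugt2b34 and -0.35 to 0.29 for Ugt2b35, and between MDR_H and BDL_H -0.051 to 0.28, -0.059 to 0.41 and -0.59 to 0.089. Depth limits Ugt2b37 most, with 14 reads in BDL replicate 1. Searched on the strand of the gene only, AGGTCA was in the same 4 windows and GTTAAT in 0 of 8.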
